A study of Mus musculus with 8 samples.

Results

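The 9 genes Ms4a1, Cr2, Fcer2a, Cd40, Fcmr, Tnfrsf13b, Tnfrsf13c, Cd37 and Cd38 encode surface molecules of mature B lymphocytes. They were taken by symbol from a list of such molecules, by a rule that names no measured value, although earlier results of these data were known when the list was drawn up. All 9 were found among the 41214 Ensembl genes counted and passed the filter on low counts. They were read by RNA sequencing of spleen tumours of C57Bl6 mice, in 8 libraries that each came from a different mouse. The 4 groups, with 2 libraries each, were B cell tumours with Miz1 deltaPOZ, B cell tumours with Miz1 wt, CD4+ T cell tumours with Miz1 deltaPOZ and CD4+ T cell tumours with Miz1 wt. Zbtb17 encodes Miz1, a DNA-binding zinc finger protein and partner of Myc, and deltaPOZ is a form without the POZ domain, through which Miz1 molecules join. The labels do not name the oncogene or agent that started the tumours, the Cre line behind the deletion or the age of the mice. The deposited names of all 4 T libraries carry the word Notch, and those of both T deltaPOZ libraries also ENU, neither of which the labels explain. In the T tumours deltaPOZ thus cannot be told apart from what ENU stands for. All RNA came from whole tumours, so that fewer cells of a type and less RNA per cell cannot be told apart.

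A B lymphocyte gains these molecules step by step as it leaves the bone marrow and settles in the spleen. Precursor B cells carry parts of the antigen receptor but little CD20, CD21 or CD23, which come up as the cell matures. The mature cell then depends on signals from the cytokine BAFF and, when T cells help it, on CD40.

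The molecules fall into 5 groups by role. Ms4a1 encodes CD20, a membrane protein linked to calcium entry and the target of rituximab in human lymphoma, and Cr2 encodes CD21 and CD35, receptors for complement fragments. Fcer2a encodes CD23, the low-affinity receptor for IgE, and Fcmr the receptor for the Fc part of IgM. The TNF receptor family is present with Cd40, with Tnfrsf13b, which encodes TACI, a receptor for BAFF and APRIL, and with Tnfrsf13c, which encodes the BAFF receptor. Cd37 encodes a tetraspanin, a membrane protein that organises other receptors into clusters. Cd38 encodes an ectoenzyme that uses NAD and makes cyclic ADP-ribose.

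The RefSeq promoter table of build GRCm38.p6 held windows of 250 bases before to 50 bases after a start site for 7 of the 9 genes. Sequences are shown for Cr2 and Fcer2a, each of which had the other as its nearest among the 9 across the 8 libraries, and for Cd37, which had the smallest p in the B tumours. Tnfrsf13c and Cd37 were likewise nearest to each other. The Tnfrsf13c window held none of the letters sought here and is not shown. The 250 bases before the Cr2 start (chr1:195176720-195176969, minus strand) are given 5′ to 3′ with the letters TGGGAA, the core bound by Rbpj, the DNA-binding partner of Notch receptors, in capitals. Fcer2a has several start sites, and the 250 bases before those at which the core or its opposite-strand form TTCCCA stood are given likewise. The first window lies at chr8:3690862-3691111 and the second at chr8:3690391-3690640, both on the minus strand. For Cd37 the 30 bases around an E box, CACGTG, the letters to which Myc and Max bind, are given (chr7:45239050-45239079, minus strand).
Cr2: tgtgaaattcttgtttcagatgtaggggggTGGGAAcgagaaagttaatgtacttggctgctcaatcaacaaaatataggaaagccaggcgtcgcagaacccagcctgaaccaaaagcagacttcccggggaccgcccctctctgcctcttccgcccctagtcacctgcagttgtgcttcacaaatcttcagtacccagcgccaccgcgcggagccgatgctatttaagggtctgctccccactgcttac
Fcer2a, first window: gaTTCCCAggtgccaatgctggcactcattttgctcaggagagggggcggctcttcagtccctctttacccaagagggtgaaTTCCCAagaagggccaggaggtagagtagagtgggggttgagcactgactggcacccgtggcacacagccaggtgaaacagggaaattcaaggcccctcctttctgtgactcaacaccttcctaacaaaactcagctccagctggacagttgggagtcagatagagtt
Fcer2a, second window: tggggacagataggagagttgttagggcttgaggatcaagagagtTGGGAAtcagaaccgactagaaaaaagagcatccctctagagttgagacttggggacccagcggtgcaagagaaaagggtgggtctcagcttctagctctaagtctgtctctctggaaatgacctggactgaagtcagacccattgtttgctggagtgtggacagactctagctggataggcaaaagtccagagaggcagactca
Cd37: agtcccaggaccCACGTGagtggaagtcca

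The Rbpj core in Cr2 began 220 bases before the start, and in Fcer2a it began 248 and 168 bases before the start in the first window and 205 in the second. A further Fcer2a start, at the 5′ end of the gene, had no such letters in its window. Cd38 also held the core, 44 bases before its RefSeq start. That site, like both Fcer2a windows shown, lies inside the span that GENCODE M21 gives the gene. The E box of Cd37 began 228 bases before the RefSeq start, inside the span that GENCODE M21 gives the gene. Over 27025 promoters of the same length, with 1 window per gene and both strands read, the core TGGGAA stood in 25.5% and the E box in 7.24%. With 1 window per gene, 2 of the 7 genes held the core and 1 held the E box. The core GAGGAA of PU.1, an Ets factor of B and myeloid cells, stood in 28.3% of all promoters and in 2 of the 7, Fcmr and Cd37. The octamer ATGCAAAT, bound by Oct factors, stood in 1.75% of all and in none of the 7. These are matches of letters, and no binding was measured.

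Depth was 53.7 and 50.9 M counts in genes for B deltaPOZ, 56.7 and 44.3 M for B wt, 52.8 and 58.3 M for T deltaPOZ, and 49.5 and 57.4 M for T wt. At this depth 3 counts, the limit that a count of 0 allows, were 0.0515 to 0.0677 CPM (counts scaled to library size), counting error only. As a check of the labels, 11 of 12 B lineage genes were called higher in B than in T tumours (16.0% of all genes). Of the T cell markers 14 of 14 were called lower (19.3% of all genes). In the tumours labelled CD4+, Cd8a (356 to 1246 CPM) stood above Cd4 (98.8 to 432 CPM). A count over the whole of Zbtb17 lies mostly outside the deleted part and checks little of the allele, and it read 49.4 and 59.1 CPM in B deltaPOZ, 66.1 and 48.0 in B wt, 40.1 and 36.9 in T deltaPOZ, and 49.6 and 42.3 in T wt. Sex followed genotype in the B tumours, since Xist read 0.936 and 0.757 CPM in B deltaPOZ and 975 and 1477 CPM in B wt. Sex and genotype therefore cannot be told apart in the B tumours. Among the T tumours T wt 1 was apart, with 1246 CPM of Xist and 22.5 CPM of the Y-linked Ddx3y, where the other T libraries had 11.8 to 35.4 and 142 to 184 CPM. Myeloid markers summed to 110 to 266 CPM in B deltaPOZ, and to 193 CPM in B wt 1 and 1351 CPM in B wt 2, and to 837 CPM in T wt 1 against 128 to 546 CPM in the other T tumours. In T deltaPOZ 1 Rag1, which cuts receptor genes, stood at 8.30 CPM and Trbc1 at 1.74 CPM, against 758 to 1068 and 176 to 313 CPM in the other T libraries. Genes with at least 1 count numbered 25387 in T deltaPOZ 2 and 18339 to 21078 elsewhere. B wt 2, T wt 1 and T deltaPOZ 2 were left out together in a separate fit, each library, T deltaPOZ 1 included, was also left out alone, and the values stand beside the results they change.

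Within a tumour the 9 genes spanned a wide range when set on a scale of CPM per kilobase of exon. In B deltaPOZ tumours the order of mean levels was Tnfrsf13b (26.7 CPM per kb), Cd37 (21.3), Tnfrsf13c (14.0), Ms4a1 (13.4), Cd38 (7.63), Cd40 (0.601), Fcmr (0.261), Cr2 (0.173) and Fcer2a (0.0190). In B wt tumours it was Cd37 (73.3 CPM per kb), Tnfrsf13c (38.5), Tnfrsf13b (33.6), Ms4a1 (9.04), Cd38 (8.75), Fcmr (2.29), Cd40 (0.630), Cr2 (0.343) and Fcer2a (0.133). The receptors for BAFF and the tetraspanin thus led in both kinds of B tumour, and Cd40, Fcmr, Cr2 and Fcer2a stood last. Neighbours in these orders often overlapped: in B deltaPOZ tumours Tnfrsf13b with Cd37, Tnfrsf13c with Ms4a1, Ms4a1 with Cd38, and Fcmr with Cr2. In B wt tumours Tnfrsf13c overlapped Tnfrsf13b, Ms4a1 overlapped Cd38, Cd40 overlapped Cr2, and Cr2 overlapped Fcer2a, while Cd37 stood above all others in both libraries.

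The T tumours gave a flatter order on the same scale. In T deltaPOZ tumours it was Cd37 (8.15 CPM per kb), Ms4a1 (5.05), Fcmr (4.84), Tnfrsf13b (4.31), Tnfrsf13c (3.28), Cd38 (2.99), Cr2 (2.31), Fcer2a (0.918) and Cd40 (0.623). In T wt tumours it was Tnfrsf13b (12.1 CPM per kb), Cd37 (7.11), Tnfrsf13c (4.49), Fcmr (2.51), Ms4a1 (2.07), Cd38 (1.96), Cd40 (0.363), Fcer2a (0.305) and Cr2 (0.256). Cr2 thus stood last in T wt tumours and above Fcer2a and Cd40 in both T deltaPOZ libraries. From Ms4a1 to Cr2 in T deltaPOZ tumours each gene's libraries overlapped those of the next in order, and in T wt tumours so did those from Tnfrsf13c to Cd38 and from Cd40 to Cr2.

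**Figure D1:**
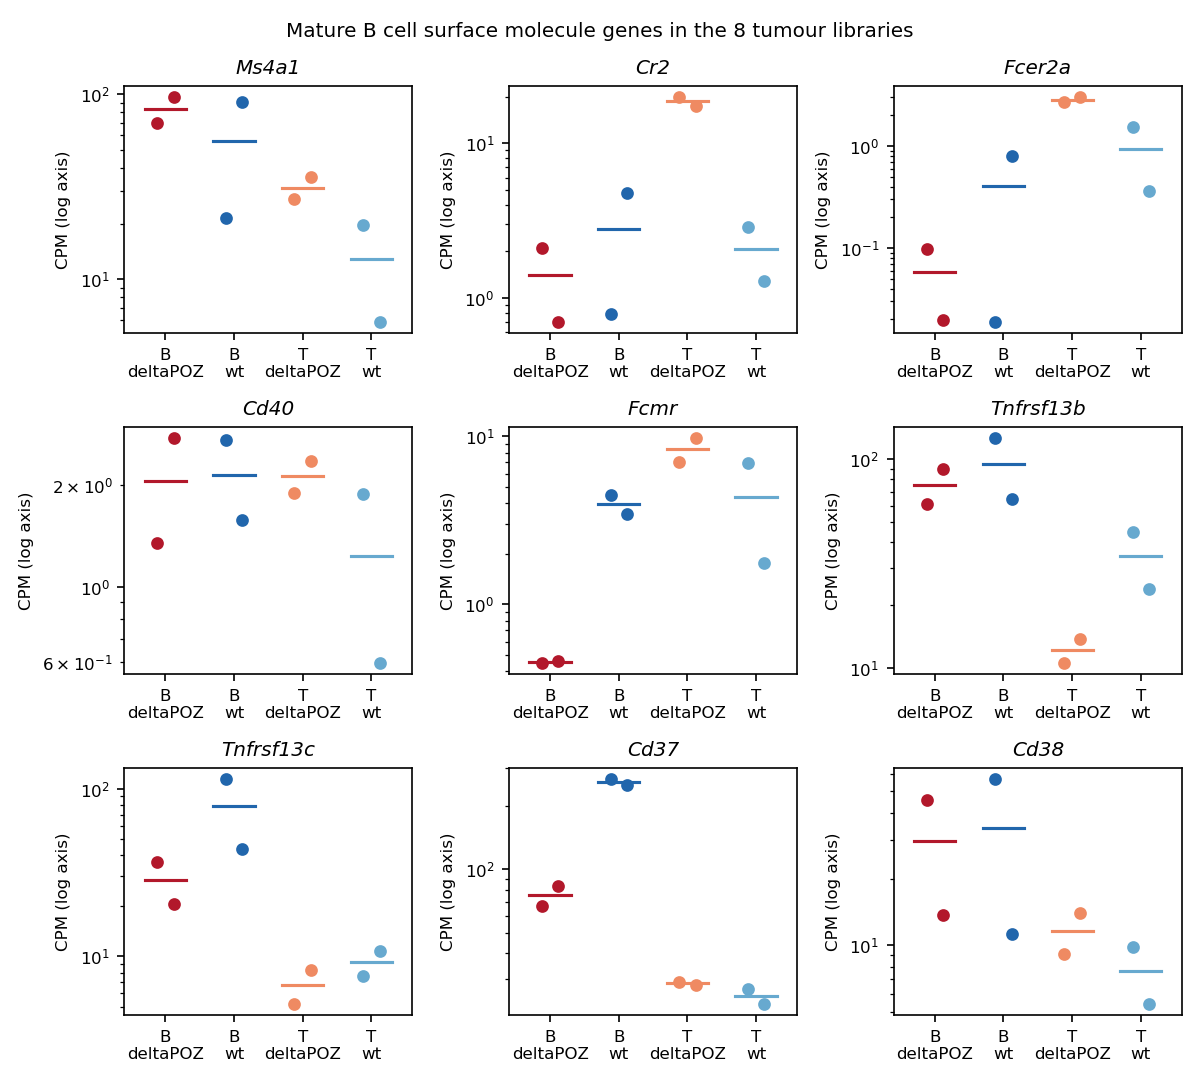
CPM of the 9 genes in each of the 8 libraries, on log axes that differ between panels. Points are libraries and lines are group means (n = 2 each). Fcmr, Tnfrsf13c and Cd37 are lower in both B deltaPOZ libraries than in both B wt libraries, and Cr2 stands at 17.6 to 19.9 CPM in T deltaPOZ against 1.28 and 2.88 CPM in T wt.

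RNA for CD20 was present in every tumour. Ms4a1 (ENSMUSG00000024673, GRCm38 chromosome 19, 11249675 to 11266241, minus strand) read 70.1 and 96.1 CPM in B deltaPOZ, 21.4 and 90.5 in B wt, 27.0 and 35.5 in T deltaPOZ, and 19.7 and 5.89 in T wt. B wt 1 was the low library among the B tumours, and the B groups overlapped, while both T deltaPOZ libraries were above both T wt libraries. On the log2 scale deltaPOZ over wt came to 0.57 (SE 0.74) in the B tumours and to 1.29 (SE 0.76) in the T tumours. Neither value passed edgeR's quasi-likelihood test after Benjamini-Hochberg adjustment (adjusted p = 0.790 and 1). Without B wt 1 the B value was -0.12.

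CD21/CD35 showed the largest shift of the 9 genes between T deltaPOZ and T wt tumours. Cr2 (ENSMUSG00000026616, chromosome 1, 195136811 to 195176716, minus strand) read 2.11 and 0.698 CPM in B deltaPOZ, 0.778 and 4.78 in B wt, 19.9 and 17.6 in T deltaPOZ, and 2.88 and 1.28 in T wt. The T groups were well apart and the B groups overlapped. In T the log2 fold change was 3.17 (SE 0.97, unadjusted p = 0.0140), which did not pass edgeR after adjustment (adjusted p = 1) and passed DESeq2 (adjusted p = 0.0462). In B it was -0.98 (SE 0.91, edgeR adjusted p = 0.692), and 0.91 without B wt 2, the library with the most Cr2 of the B tumours.

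The Fc receptors were both low in the B deltaPOZ tumours. Fcer2a (ENSMUSG00000005540, chromosome 8, 3681737 to 3694175, minus strand) rested on 5 and 1 counts in B deltaPOZ, 1 and 36 in B wt, 146 and 181 in T deltaPOZ, and 82 and 20 in T wt. In CPM these were 0.0975 and 0.0199 in B deltaPOZ, 0.0190 and 0.801 in B wt, 2.68 and 3.0 in T deltaPOZ, and 1.52 and 0.360 in T wt. CD23 RNA was thus at or near the counting limit in every B tumour except B wt 2, and the B fold change (-2.74, SE 1.57, edgeR adjusted p = 0.517) turned to 1.58 without that library. In T the log2 fold change was 1.59 (SE 1.36, edgeR adjusted p = 1).

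Fcmr (ENSMUSG00000042474, chromosome 1, 130865669 to 130880791, plus strand) had 0.449 and 0.458 CPM in B deltaPOZ, 4.50 and 3.45 in B wt, 7.05 and 9.75 in T deltaPOZ, and 6.95 and 1.77 in T wt. Both B deltaPOZ libraries held 23 counts, against 237 and 155 in B wt, and the groups were far apart. The IgM Fc receptor stood 8.72-fold lower in B deltaPOZ than in B wt (log2 -3.12, SE 0.71, unadjusted p = 0.00320), which did not pass edgeR over all genes (adjusted p = 0.235) and passed DESeq2 (adjusted p = 0.000416). With each library left out in turn the log2 value ran from -3.24 to -2.92 (edgeR adjusted p from 0.199 to 0.466). In T the log2 fold change was 0.95 (SE 0.64, edgeR adjusted p = 1), with T wt 1 next to the T deltaPOZ libraries and T wt 2 far lower.

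Among the TNF receptors, Cd40 was low everywhere. Cd40 (ENSMUSG00000017652, chromosome 2, 165055627 to 165072948, plus strand) read 1.35 and 2.75 CPM in B deltaPOZ, 2.71 and 1.58 in B wt, 1.89 and 2.35 in T deltaPOZ, and 1.88 and 0.595 in T wt. All libraries but T wt 2 lay within 1.35 to 2.75 CPM, and T wt 2 stood below them. The B fold change was -0.07 (SE 0.70) and the T fold change 0.78 (SE 0.70), both log2, without a pass in edgeR (adjusted p = 0.991 and 1).

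Tnfrsf13b (ENSMUSG00000010142, chromosome 11, 61126755 to 61149372, plus strand) read 61.4 and 90.0 CPM in B deltaPOZ, 126 and 64.7 in B wt, 10.6 and 13.8 in T deltaPOZ, and 44.6 and 23.9 in T wt. TACI was the only gene of the 9 that was lower in both T deltaPOZ libraries than in both T wt libraries (log2 -1.49, SE 0.44, unadjusted p = 0.0118, edgeR adjusted p = 1). The B groups overlapped (log2 -0.33, SE 0.43, edgeR adjusted p = 0.784).

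Tnfrsf13c (ENSMUSG00000068105, chromosome 15, 82221743 to 82224369, minus strand) read 36.7 and 20.6 CPM in B deltaPOZ, 114 and 43.5 in B wt, 5.20 and 8.24 in T deltaPOZ, and 7.61 and 10.8 in T wt. The BAFF receptor was lower in both B deltaPOZ libraries than in both B wt libraries, and B wt 1 stood far above the rest. The log2 fold change in B was -1.46 (SE 0.53, unadjusted p = 0.0281), which did not pass edgeR (adjusted p = 0.370) or DESeq2 (adjusted p = 0.123), and it shrank to -0.60 without B wt 1. In T the groups overlapped (-0.45, SE 0.52, edgeR adjusted p = 1).

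Cd37 gave the steadiest values of the set. Cd37 (ENSMUSG00000030798, chromosome 7, 45233632 to 45239115, minus strand) read 67.2 and 82.8 CPM in B deltaPOZ, 267 and 250 in B wt, 29.3 and 28.1 in T deltaPOZ, and 27.1 and 23.0 in T wt. The tetraspanin stood 3.44-fold lower in B deltaPOZ than in B wt tumours, while the 4 T libraries lay close together. In B the log2 fold change was -1.78 (SE 0.18, unadjusted p = 3.10e-05). It missed the threshold of 0.05 in edgeR after adjustment (adjusted p = 0.0638) and passed it in limma-voom (adjusted p = 0.0485) and DESeq2 (adjusted p = 1.99e-09). With each library left out the log2 value ran from -1.94 to -1.59 (edgeR adjusted p from 0.0801 to 0.207). In T it was 0.20 (SE 0.18, edgeR adjusted p = 1). Tead2, which overlaps Cd37 on the other strand, reached at most 0.245 CPM in any library.

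Cd38 varied more between mice than between genotypes. Cd38 (ENSMUSG00000029084, chromosome 5, 43868553 to 43912375, plus strand) read 45.7 and 13.7 CPM in B deltaPOZ, 56.8 and 11.3 in B wt, 9.16 and 14.1 in T deltaPOZ, and 9.86 and 5.43 in T wt. Each B group held a high and a low library, and the groups overlapped in both lineages. The B fold change was -0.20 (log2, SE 0.83, edgeR adjusted p = 0.950) and turned to 1.40 without B wt 1, and the T fold change was 0.61 (SE 0.84, adjusted p = 1).

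Counted together, none of the 9 genes passed edgeR between B deltaPOZ and B wt tumours, where 0.00608% of the 16456 tested genes did. At an unadjusted p under 0.05 stood 3 of the 9 (Fcmr, Tnfrsf13c and Cd37), against 12.1% of all genes, and limma-voom called 1 (0.0365% of all) and DESeq2 2 (3.90%). Those 3 genes were also lower in both B deltaPOZ libraries than in both B wt libraries, a pattern of 19.1% of all genes, and none of the 9 was higher in both (19.9% of all). The median log2 fold change of the 9 was -0.98, against -0.01 over all tested genes, and 8 of 9 had a negative sign. Because 5 of these 8 signs, those of Cr2, Fcer2a, Cd40, Tnfrsf13b and Cd38, turned when a single library was left out, the count of signs rests on single mice. Between T deltaPOZ and T wt tumours no gene of the 9 and 0% of all genes passed edgeR. Cr2 and Tnfrsf13b had an unadjusted p under 0.05, against 2.65% of all genes, and DESeq2 called Cr2 alone among the 9 (0.326% of all), while limma-voom called none. Ms4a1, Cr2, Fcer2a, Cd40, Fcmr and Cd37 were higher in both T deltaPOZ libraries than in both T wt libraries (15.4% of all genes) and Tnfrsf13b was lower (17.0%). The median was 0.78 over the 9 genes and 0.00 over all. These T values moved with single libraries: with each left out the log2 fold change ran from 0.67 to 2.40 for Ms4a1, from 2.71 to 3.87 for Cr2, from 0.90 to 2.96 for Fcer2a, from 0.18 to 1.83 for Cd40 and from 0.28 to 2.24 for Fcmr. The lowest of each came without T wt 2 and the highest without T wt 1. Cd37 ran from 0.09 to 0.32 and Tnfrsf13b from -1.87 to -0.97, with the same libraries at the ends. Without T deltaPOZ 1 Cr2 was at 3.08 and Tnfrsf13b at -1.31.

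**Figure D2:**
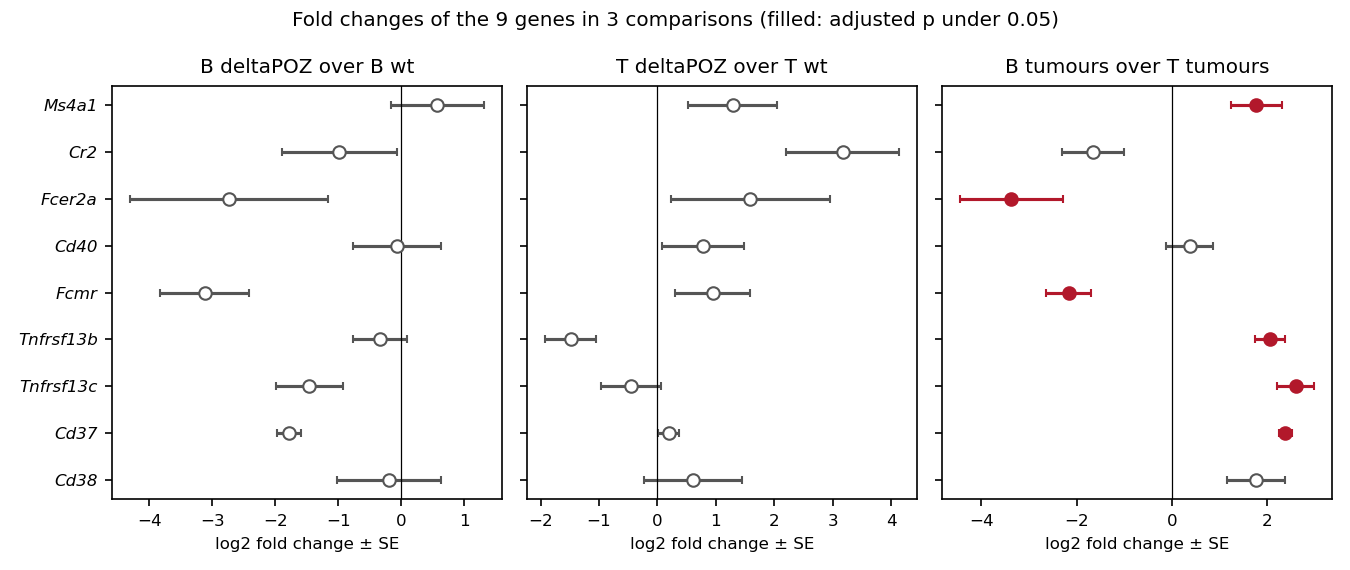
Log2 fold change with its SE for each of the 9 genes in B deltaPOZ over B wt, T deltaPOZ over T wt, and B over T tumours, with axes that differ between panels. Filled points passed edgeR at an adjusted p under 0.05. None is filled in the comparisons of genotype, where Cd37 (-1.78) has the shortest bar in B and Cr2 (3.17) the largest value in T, and 6 are filled between lineages.

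The difference between deltaPOZ and wt, here called the deltaPOZ effect, was then compared between lineages as the effect in B minus that in T. In B tumours it cannot be told apart from sex, and in T tumours not from what ENU in the deposited names stands for. No gene of the 9 and 0% of all tested genes passed edgeR, and 3 of the 9 had an unadjusted p under 0.05 (6.26% of all). For Cd37 the difference was -1.98 (SE 0.26, edgeR adjusted p = 0.259), for Fcmr -4.07 (SE 0.95, adjusted p = 0.591) and for Cr2 -4.16 (SE 1.32, adjusted p = 0.719). With each library left out the difference ran from -2.14 to -1.79 for Cd37, from -5.37 (without T wt 1) to -3.40 (without T wt 2) for Fcmr, and from -5.11 (without B deltaPOZ 1) to -2.26 (without B wt 2) for Cr2. DESeq2 called these 3 (adjusted p = 2.99e-05, 0.00276 and 0.0375, against 1.41% of all genes), and limma-voom called none. Of the 3, Cd37 and Fcmr were lower in both B deltaPOZ libraries and higher in both T deltaPOZ libraries than in wt of the same lineage. The margin in T was narrow. The lower T deltaPOZ and the higher T wt library read 28.1 and 27.1 CPM for Cd37, and 7.05 and 6.95 CPM for Fcmr. The share of all genes with this opposite pattern was not counted.

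Between lineages the set split. In B tumours Tnfrsf13c (log2 2.59, SE 0.39, edgeR adjusted p = 0.00399), Cd37 (2.38, SE 0.13, adjusted p = 0.000231), Tnfrsf13b (2.05, SE 0.31, adjusted p = 0.00428) and Ms4a1 (1.77, SE 0.54, adjusted p = 0.0426) were higher than in T tumours. For Tnfrsf13c, Cd37 and Tnfrsf13b all 4 B libraries stood above all 4 T libraries, and the share of all genes that separate so was not counted. Fcmr (-2.17, SE 0.48, edgeR adjusted p = 0.0141) and Fcer2a (-3.37, SE 1.07, adjusted p = 0.0486) were lower in B tumours than in T tumours, although both are known from B cells. For Ms4a1, Fcmr and Fcer2a the B and T libraries overlapped. Fcmr in B wt (4.50 and 3.45 CPM) lay between the T wt libraries (6.95 and 1.77 CPM). Among the wt tumours alone the lineages thus overlapped, with close means of 3.97 CPM in B wt and 4.36 CPM in T wt. So 4 of 9 were called higher, where 16.0% of all genes were, and 2 of 9 lower, where 19.3% were. Cd38 (1.75, SE 0.60), Cr2 (-1.66, SE 0.65) and Cd40 (0.37, SE 0.49) did not pass (edgeR adjusted p = 0.0618, 0.0883 and 0.590). DESeq2 called 8 of the 9, adding Cd38 (adjusted p = 0.00633) and Cr2 (adjusted p = 0.0169), where it called 36.1% of all genes, and limma-voom called 7, adding Cr2 (adjusted p = 0.0445), where it called 35.3%. The Ms4a1 call was lost on leaving out B deltaPOZ 1, B deltaPOZ 2, B wt 2, T deltaPOZ 1, T deltaPOZ 2 or T wt 2 (edgeR adjusted p from 0.0697 to 0.123). Fcer2a lost its call on leaving out B deltaPOZ 1, B deltaPOZ 2 or any T library (edgeR adjusted p from 0.0618 to 0.14), and both genes lost it on library totals without further normalization. Without the 3 libraries that stand apart neither Fcer2a nor Fcmr passed (edgeR adjusted p = 0.0799 and 0.234). The deposited names give a sequencing run that differs between B and T libraries, so run and lineage cannot be told apart. Markers of other cells differed with lineage too: 8 of 8 erythroid markers were called lower in B (sums of 8.81 to 212 CPM in B and 3864 to 19878 in T), and 4 of 5 platelet markers (1.08 to 2.24 CPM in B and 6.70 to 35.6 in T). Their part in the results on the 9 genes was not tested.

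The T tumours carried RNA of B lineage genes, and the 9 genes can be set beside it. Cd79b, a chain of the antigen receptor that B cells carry from the precursor on, read 488 and 468 CPM in B deltaPOZ, 971 and 478 in B wt, 20.9 and 25.2 in T deltaPOZ, and 23.0 and 5.23 in T wt. T wt 2 was the lowest of the T libraries in Cd79b, and also in Ms4a1, Cr2, Fcer2a, Cd40, Fcmr, Cd37 and Cd38. Per 100 CPM of Cd79b in the same library, each of the 9 genes stood lower in all 4 B tumours than in all 4 T tumours. Cd79b itself was higher in B than in T tumours (log2 5.03, SE 0.53, edgeR adjusted p = 0.00132), by more than any of the 9 genes. A lower ratio in B is thus largely set by the choice of Cd79b, and the share of all genes with it was not counted. Ms4a1 had 2.20 to 20.5 CPM per 100 CPM of Cd79b in B tumours and 85.6 to 141 in T tumours. For Fcmr the ratio was 0.0920 to 0.721 in B and 30.2 to 38.7 in T, and for Fcer2a 0.00196 to 0.167 in B and 6.61 to 12.8 in T. Cd40 had 0.276 to 0.588 in B and 8.15 to 11.4 in T. These ratios lay in a narrow range over the T libraries.

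The other 5 ratios ran over wider ranges in the T libraries. Per 100 CPM of Cd79b, Cr2 had 95.3 and 69.9 CPM in T deltaPOZ, against 12.5 and 24.5 in T wt, and 0.0802 to 0.9995 in B tumours. Tnfrsf13b had 50.7 and 55.0 in T deltaPOZ, against 194 and 457 in T wt, and 12.6 to 19.2 in B. Relative to Cd79b, Ms4a1, Cr2 and Fcer2a were higher in both T deltaPOZ libraries than in both T wt libraries, and Tnfrsf13b and Tnfrsf13c were lower in both, while the other 4 overlapped. Tnfrsf13c ran from 24.9 to 206 in T and from 4.40 to 11.7 in B, Cd37 from 112 to 440 in T and from 13.8 to 52.2 in B, and Cd38 from 42.8 to 104 in T and from 2.36 to 9.36 in B. The highest value of each of these 3 was that of T wt 2. With Pax5, the factor that fixes B cell identity, in place of Cd79b, Tnfrsf13c overlapped between lineages and the other 8 genes did not. Relative to Pax5, Cr2 and Fcer2a were again higher in both T deltaPOZ libraries, and Tnfrsf13b and Tnfrsf13c again lower. Ms4a1 then overlapped, and Cd40 and Cd37 were lower in both T deltaPOZ libraries. Pax5 read only 0.559 to 3.37 CPM in T tumours. The share of all genes that separate in this way was not counted. These ratios were chosen after earlier results were known and are a description, and which cells of a tumour the RNA came from was not measured.

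**Figure D3:**
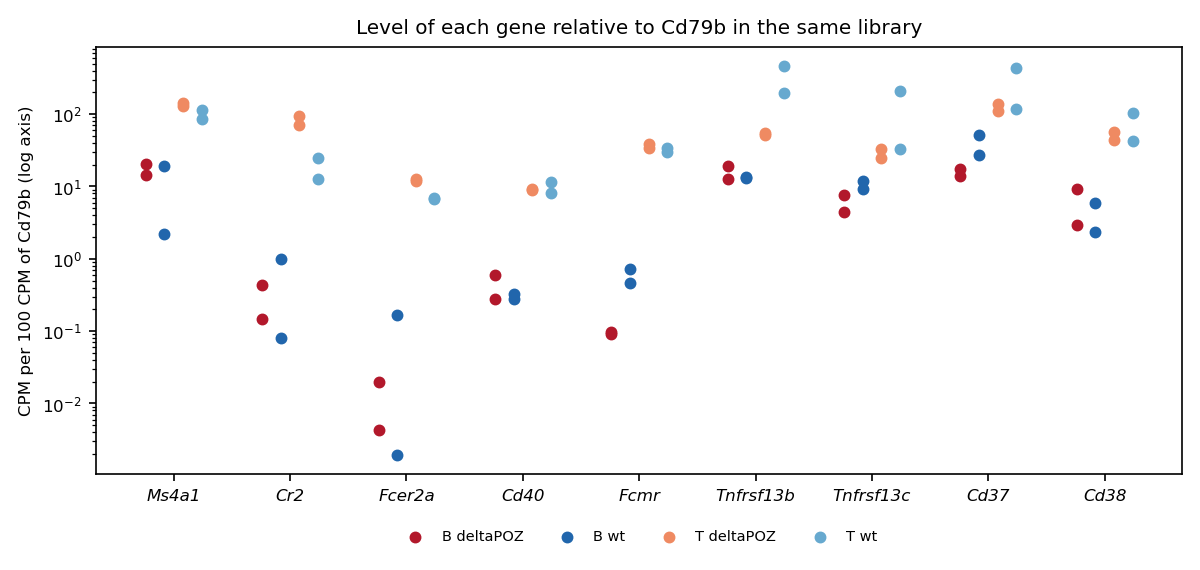
CPM of each of the 9 genes per 100 CPM of Cd79b in the same library, on a log axis, with 1 point per library. The 4 T libraries lie above the 4 B libraries for every gene, close together for Ms4a1 (85.6 to 141) and Fcmr (30.2 to 38.7) and spread for Tnfrsf13b (50.7 to 457). Cd79b itself was higher in B than in T tumours (log2 5.03), by more than any of the 9 genes.

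Other genes of the B cell programme were read from lists. Of 12 B lineage identity genes 11 had a negative log2 fold change in B deltaPOZ against B wt, with a median of -0.57, where 48.1% of all tested genes had a positive value. None passed edgeR, and 2 had an unadjusted p under 0.05 (12.1% of all genes). Those 2 were Tcf3, a factor of early B cell development (-0.85, SE 0.26), and Cd79a, a chain of the antigen receptor (-1.63, SE 0.61). In T, 10 of the 12 were positive with a median of 0.53, where 49.8% of all genes were positive, and none passed edgeR (0 at an unadjusted p under 0.05). Of 14 precursor B cell genes all 14 were negative in B, with a median of -2.13, and 7 had an unadjusted p under 0.05 (12.1% of all genes), but none passed edgeR. Vpreb1, part of the surrogate light chain, read 0.0585 and 0.937 CPM in B deltaPOZ and 19.3 and 21.9 in B wt. Erg, an Ets factor of progenitors, read 0.156 and 0.0598 CPM in B deltaPOZ and 21.1 and 11.5 in B wt (log2 -7.20, SE 0.99, edgeR adjusted p = 0.0819). Of the 14, 12 were lower in both B deltaPOZ libraries than in both B wt libraries (19.1% of all genes). Rag1 (920 and 50.3 CPM in B deltaPOZ, 1596 and 482 in B wt) and Lef1 overlapped. The 14 genes summed to 1297 and 485 CPM in B deltaPOZ and to 2927 and 1294 CPM in B wt. Fcmr, Tnfrsf13c and Cd37 were also lower in both B deltaPOZ libraries, and whether the values are linked was not tested.

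A list of 19 other genes of mature B cells had no common direction in B, with 9 positive, 10 negative, a median of -0.15. None was called by edgeR, and 5 had an unadjusted p under 0.05 (12.1% of all genes). Cd72, a lectin that holds back antigen receptor signals, read 5.73 and 41.3 CPM in B deltaPOZ and 209 and 115 in B wt (-2.78, SE 0.87, edgeR adjusted p = 0.323). Bank1, a scaffold in antigen receptor signalling, read 250 and 121 CPM in B deltaPOZ and 38.3 and 84.2 in B wt (1.60, SE 0.50, edgeR adjusted p = 0.323). In T, 15 of the 19 were positive with a median of 0.40. Among 10 genes of transitional and marginal zone B cells, cells rich in CD21, 4 were positive and 6 negative in B, with a median of -0.08. Notch2, which drives the marginal zone fate, read 253 and 175 CPM in B deltaPOZ and 99.1 and 115 in B wt (0.998, SE 0.22, edgeR adjusted p = 0.227). Of 12 myeloid markers 10 were negative in B, with a median of -2.24, and B wt 2 held their highest sum. Of 8 erythroid markers 7 were positive in B, with a median of 3.87, 5 at an unadjusted p under 0.05 and none called by edgeR, and they summed to 16.4 and 212 CPM in B deltaPOZ and to 8.81 and 60.8 CPM in B wt. Without B wt 2 the B value was -3.24 for Fcmr, -1.77 for Cd37, 0.91 for Cr2 and 1.58 for Fcer2a. The part of myeloid and erythroid cells in the values of the 9 genes was not tested.

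**Figure D4:**
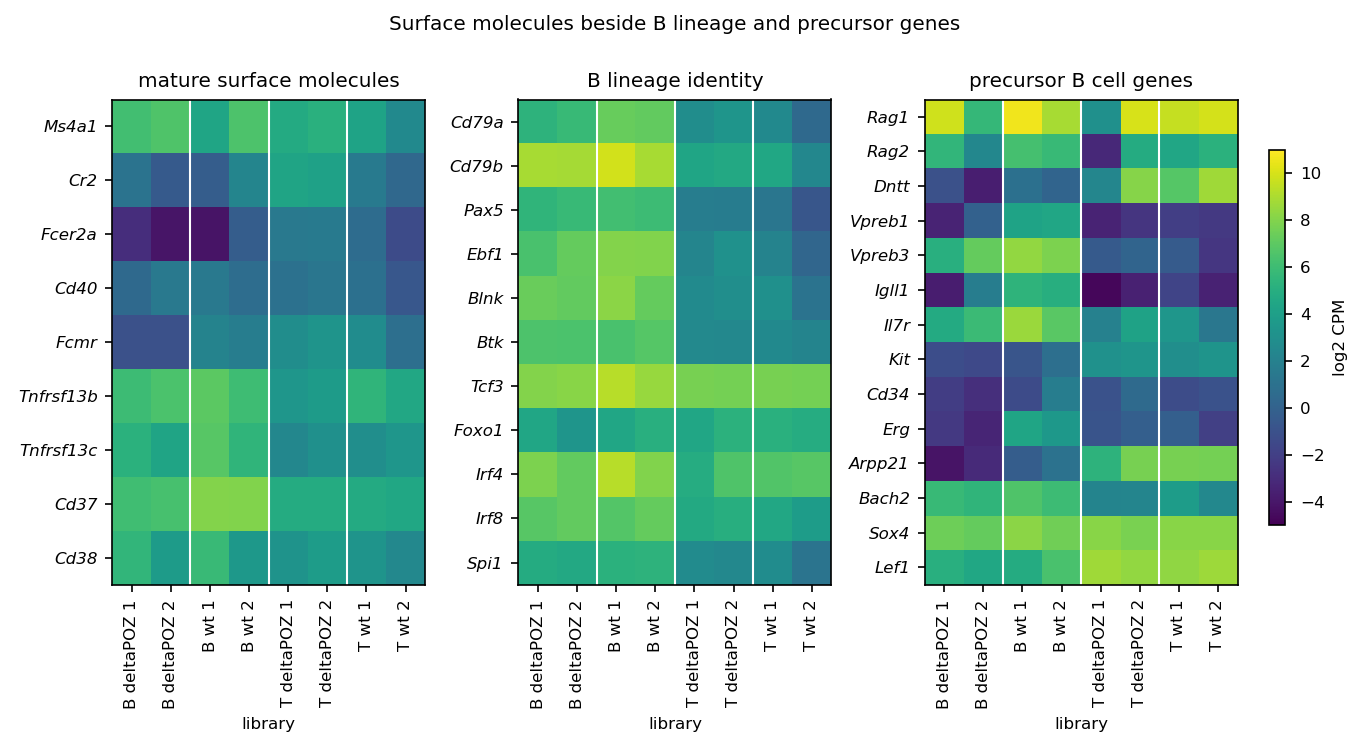
Log2 CPM (prior count 2) of the 9 surface molecule genes, 11 of the B lineage identity genes and 14 precursor B cell genes in the 8 libraries, with colour from dark (low) to yellow (high). Cd79b runs from 468 to 971 CPM in B libraries and from 5.23 to 25.2 in T libraries, while Ms4a1 runs from 21.4 to 96.1 CPM in B libraries and from 5.89 to 35.5 in T libraries.

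Of the signalling genes behind the TNF receptors, all 11 matched and tested genes had a negative log2 fold change in B, with a median of -0.37. None was called by edgeR, and 1 had an unadjusted p under 0.05 (12.1% of all genes). Nfkb2, the precursor of the p52 subunit through which BAFF and CD40 signal, read 11.7 and 9.29 CPM in B deltaPOZ and 28.1 and 16.5 in B wt (-1.09, SE 0.37, edgeR adjusted p = 0.349). Traf6, an adaptor of CD40, read 81.6 and 57.2 CPM in B deltaPOZ and 170 and 78.2 in B wt (-0.84, SE 0.37, edgeR adjusted p = 0.425). In T, 9 of the 11 were negative with a median of -0.16, and none was called. Traf5, which binds CD40, was the only gene of the 11 called higher in B than in T tumours (2.01, SE 0.37, edgeR adjusted p = 0.00771), and Nfkb2 the only gene called lower (-0.89, SE 0.26, adjusted p = 0.0366). Over all tested genes 16.0% were called higher and 19.3% lower, so the 11 were not called more often than genes in general. The ligands were close to the counting limit: Tnfsf13b, which encodes BAFF, reached at most 0.279 CPM, Tnfsf13, which encodes APRIL, 0.421 and Cd40lg 0.0929 in any library. Tnfrsf17, the third receptor of that cytokine pair, reached 0.371.

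For each gene the tested genes with the most similar profile were sought as the smallest root mean square distance of centred log2 CPM over the 8 libraries. Ms4a1 lay nearest to H2-DMb2 (distance 0.33) and Ciita (0.47), genes of MHC class II presentation. Cd37 lay nearest to Lgr4 and Nedd9 (0.32 each), and Cd40 to Tlr9 (0.25), a sensor of DNA, and Cdiptos (0.27). Tnfrsf13b was closest to Kmo (0.38) and Tnnt3 (0.39), Tnfrsf13c to Gm17025 (0.34) and Dcxr (0.36), and Cd38 to 1700018A04Rik (0.32) and Sez6l (0.38). Cr2 was closest to Apcdd1 (0.44) and Pygo1 (0.65), Fcmr to F5 (0.65) and Kcnf1 (0.65), and Fcer2a to ENSMUSG00000094062 (0.59) and Ntng2 (0.60). Several of these neighbours, among them Pygo1, Kcnf1 and 1700018A04Rik, stood under 1 CPM in every library. Among the 9 genes themselves Tnfrsf13c and Cd37 were nearest to each other (0.58), and so were Cr2 and Fcer2a (1.01). No other gene of the 9 was the nearest of its own nearest.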

How the data were processed

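Messenger RNA of 8 tumours was measured. Per the labels' protocols, RNA was extracted with a MagMax-96 kit and libraries were made with the TruSeq Stranded mRNA kit. Per the submitters' processing notes, TopHat2 2.0.10, SAMtools, HTSeq and DESeq were used with mm10/GRCm38. The annotation release and strand setting are not given in the sources used. The authors deposited raw counts per gene, which were used as they are. Counts assigned to no gene (30.4 to 39.3%) or to several (0.471 to 0.554%) were left out. Gene positions came from GENCODE M21, which held 97.7% of the 41214 identifiers.

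A single edgeR 4.0.16 fit over the 8 libraries used trimmed mean of M values, filterByExpr (16456 of 27639 genes with a count), 1 mean per group, glmQLFit and glmQLFTest. It left 4 residual degrees of freedom, with a biological coefficient of variation of 0.45. P-values were adjusted over every tested gene and called under 0.05. CPM include the normalization factors. Alternatives were limma 3.58.1 (voom), DESeq2 1.42.0, other scalings, filters and thresholds, each lineage alone, and libraries left out. R 4.3.3 and Python 3.11.15 were used, and the fits were tested on simulated data. The 9 genes and the other lists were chosen with earlier results of these data known. Named genes of other lists are among the 4 with the smallest p in B, with exceptions that were chosen after their values were seen. These exceptions are defining markers, genes of a count of 5 or fewer, Rag1, Lef1 and Tnfrsf17. Of the list entries, Camlg and Ighd matched no identifier. Replicate numbers only follow record order. A gene of these lists is not reported here by itself, though it stayed in every fit and list count.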

Additional observations from a re-analysis of the deposited data

Results flagged for a closer look

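Fcmr is listed because every B deltaPOZ library lay below every B wt library while every T deltaPOZ library lay above every T wt library. In T the margin was narrow, with 7.05 CPM in T deltaPOZ 1 and 6.95 CPM in T wt 1. The deltaPOZ effect in B minus that in T was -4.07 on the log2 scale (edgeR unadjusted p = 0.00378, adjusted p = 0.591), so the difference between lineages did not pass the test. Cd37 is listed for the same pattern, with a difference of -1.98 (edgeR unadjusted p = 0.000128, adjusted p = 0.259), which did not pass either. Its margin in T was narrow too, with 28.1 CPM in T deltaPOZ 2 and 27.1 CPM in T wt 1. The share of all genes with this pattern was not counted. No group held enough libraries to test for a single outlying library.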

How the results depend on the processing

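Of 693 recomputed fold changes and calls of single genes, 635 kept their direction and side of the threshold, 29 passed it newly, 17 lost it and 12 changed sign. The count of the 9 genes called in B deltaPOZ against B wt was 0 and became 1 with a filter of 5 CPM, with a threshold of 0.1 and with limma-voom, 2 with DESeq2 and 3 with no filter. Of all tested genes these settings called, in that order, 9 of 10810, 39 of 16456, 6 of 16456, 598 of 15314 and 1324 of 27639. In T the count of 0 became 1 with DESeq2 (57 of 17458 genes) and 3 with no filter (254 of 27639). For the difference between lineages it became 3 with DESeq2 (224 of 15850 genes) and 4 with no filter (784 of 27639). With no filter the median prior degrees of freedom were infinite, against 2.86 in the fit reported. With each library left out, these 3 counts stayed at 0 (0 to 0), and the count between B and T tumours ran from 4 to 7, against 6 in the fit reported; it was 8 with DESeq2, no filter or a threshold of 0.1.

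Between B and T tumours the fit reported called 5801 of 16456 genes. There DESeq2 called 6689 of 18529, the fit with no filter 6932 of 27639, and the threshold of 0.1 gave 7497 of 16456. With each library left out, the B fold change ran from -0.12 to 2.02 for Ms4a1, from -1.94 to 0.91 for Cr2, from -4.15 to 1.58 for Fcer2a, from -0.67 to 0.41 for Cd40, from -0.68 to 0.23 for Tnfrsf13b and from -1.26 to 1.40 for Cd38. The difference between lineages ran from -1.83 to 0.74 for Ms4a1 and from -1.87 to 0.79 for Cd38. In B, the sign turned without B deltaPOZ 1 for Cd40 (0.41), and without B deltaPOZ 2 for Cd38 (0.42). Without B wt 1 it turned for Ms4a1 (-0.12), Cd40 (0.38), Tnfrsf13b (0.23) and Cd38 (1.40), and for the Cd38 difference between lineages (0.79). Without B wt 2 it turned for Cr2 (0.91), Fcer2a (1.58) and the Ms4a1 difference between lineages (0.74). Without B wt 2, T wt 1 and T deltaPOZ 2 together, a setting chosen after seeing the data, the sign turned for Cr2 (0.84) and Fcer2a (1.51). For these sign changes the cause was not tested beyond the loss of the named library. No paired analysis was possible because the mice of different groups share no number in the labels. With 2 mice per group p-values rest on few degrees of freedom, and Fcer2a in B tumours rests on 1 to 36 counts.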

Other observations

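None of the tested relatives of the 9 genes passed edgeR between B deltaPOZ and B wt tumours. Of 8 other tetraspanins 6 had a negative log2 fold change in B deltaPOZ against B wt (median -0.64), 2 with an unadjusted p under 0.05 (12.1% of all genes). Cd82 read 5.79 and 4.41 CPM in B deltaPOZ and 14.1 and 16.0 in B wt (-1.56, SE 0.44, edgeR adjusted p = 0.299), while Cd81 read 144 and 90.9 CPM in B deltaPOZ and 120 and 201 in B wt (-0.45, SE 0.31, edgeR adjusted p = 0.592). Of 9 relatives of Ms4a1, 8 were negative in B (median -0.73) and 1 had an unadjusted p under 0.05 (12.1% of all genes). Of the same 9, 3 were called lower in B than in T tumours, as were 19.3% of all genes. Of 5 tested relatives among Fc receptors none had an unadjusted p under 0.05 in B. Between lineages 3 were called higher in B than in T tumours (16.0% of all genes) and 1 lower (19.3%). Higher were Fcgr2b, the inhibitory IgG receptor (2.57, SE 0.37, edgeR adjusted p = 0.00363), Fcrla (2.61, SE 0.77, adjusted p = 0.0379) and Fcrl1 (1.91, SE 0.43, adjusted p = 0.0155). Lower was Fcrl5 (-2.92, SE 0.58, edgeR adjusted p = 0.00986).

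Bst1, the paralog that lies beside Cd38 and shares its enzyme family, read 0.878 and 1.63 CPM in B deltaPOZ, 31.9 and 20.5 in B wt, 4.98 and 180 in T deltaPOZ, and 69.0 and 108 in T wt. Its log2 fold change in B was -4.38 (SE 1.44, edgeR adjusted p = 0.335), while that of Cd38 was -0.20. The 9 tested genes within 1 Mb of Cd38 had a median of -1.17 in B. Cd93, a receptor of immature B cells, read 448 and 77.4 CPM in B deltaPOZ, 726 and 522 in B wt, and 2.65 to 8.98 CPM in T tumours.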
